A study of Mus musculus with 83 samples.

Results

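Small RNA of mouse embryonic stem cells (ESCs) that had lost *Dnmt1*, which encodes the methyltransferase that maintains DNA methylation, was compared between day 25 and day 11 after the deletion was induced. The comparison holds 6 of the 83 small RNA libraries of the series, chosen by their titles: 3 Dnmt1 KO libraries of day 11 and 3 of day 25, without the libraries whose titles end in R1. The cells carry a conditional *Dnmt1* allele and a Cre recombinase that tamoxifen (4OHT) switches on, and the ESCs were grown in serum with LIF. The labels give E14 as the background, whereas the study's methods describe cells of a C57BL/6 background, and this was not resolved here. Cultures were kept with or without feeder cells (fibroblasts that support ESCs), and which libraries came from which was not given in the sources used here. As a reference for what the days share, the 3 control libraries of day 11 and the 3 of day 25 of the same course were used, which are titled control. Nothing in the labels says that replicates came from separate cultures. The limma p-values measure the spread between libraries of the same day and genotype, pooled over the 36 libraries of the whole course. That spread may be technical.

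MicroRNAs (miRNAs) are RNAs of about the length of these reads that are cut from a hairpin by Drosha and Dicer and loaded into Argonaute, where their seed, the bases at the 5′ end, pairs with target mRNAs. In ESCs the miR-290 and miR-302 clusters and their relatives favour rapid division, and several members of these clusters share a seed. Lin28 blocks the maturation of let-7, a family that marks differentiated cells. According to the study, miRNA levels in these ESCs did not depend on DNA methylation, except at the imprinted *Dlk* and *Xlr3* loci. The Dlk1-Dio3 region is imprinted, with its miRNAs made from the maternal copy only, and *Sfmbt2* is an imprinted gene that carries a large rodent miRNA cluster in an intron. DNMT1 copies methylation to the new strand at each division, so cells without it lose the mark passively.

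Each library gave reads per 1e+06 reads (RPM) for each of 32101 annotated features, and all levels below are RPM after scaling between libraries. The day 11 Dnmt1 KO libraries held 4257450 to 5659536 reads and those of day 25 held 527678 to 780784, so that 10 RPM on day 25 was about 5.28 reads in the shallowest library. The control libraries were also shallower on day 25 (521066 to 815523 reads against 2427387 to 4192990 on day 11). Day 25 is the only day of the course without libraries titled R1. Whether its libraries were prepared or sequenced apart from those of day 11 was not given in the sources used here. Within a genotype, day and any such batch cannot be told apart. With reads thinned to the shallowest library 863 of 3134 tested features were called in Dnmt1 KO. At full depth 1313 of 2582 were called. The calls shared by both were 828, all in the same direction, which is 63.1% of the calls at full depth. Replicates of day 11 correlated at r = 0.992 to 0.994 over tested features, those of day 25 at 0.952 to 0.962, and the pairs between days at 0.888 to 0.903. The *Dnmt1* feature (chromosome 9, 20711650 to 20757317) held 27.8, 20.3 and 18.4 RPM on day 11 and 60.3, 42.8 and 46.5 RPM on day 25. It spans the whole gene, so these few reads do not check the deletion. Since small RNA per cell and the number of cells both enter a bulk library, fewer cells of a type and less RNA per cell cannot be told apart.

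Between day 11 and day 25 the small RNA libraries of Dnmt1 KO cells differed widely, and miRNAs fell more often than they rose. Of 2582 features tested, 1313 (50.9%) were called at an adjusted p under 0.05 in limma, 633 (24.5%) higher and 680 (26.3%) lower on day 25, and the median log2 change over all features was -0.01. Among 291 tested miRNAs 65 rose and 128 fell, with a median of -0.33. Large changes leaned further that way: of miRNAs called with a log2 change beyond 2 in size, 4 rose and 39 fell. Over all 2582 features 76 rose and 106 fell by this much. In control the same cut gave 11 rises and 66 falls among miRNAs, and 129 and 171 over all features. For 1392 features (53.9%) the day 11 and day 25 libraries of Dnmt1 KO did not overlap. Features of protein-coding genes leaned the other way, with 498 of 1897 higher, 354 lower and a median of 0.13. Some of them, such as *Rtl1*, *Sfmbt2* and *Vmp1*, hold the reads of miRNAs within them, and these were not counted apart. The balance of rises and falls depends on the scaling, since 48.2% of calls were higher here, 54.1% with library totals as the scale, 39.9% with median-ratio factors and 21.1% with trimmed-mean factors over all 32101 features, which moved the median of all features to -0.45.

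The control cells were measured on the same days and shared much of this. In them 1531 features (59.3%) were called, 659 (25.5%) higher and 872 (33.8%) lower, and 1030 features were called in both genotypes, which is 78.4% of the Dnmt1 KO calls and 67.3% of the control calls. Of these, 971 moved in the same direction and 59 in opposite directions. Among miRNAs, 156 were called in both, 124 in the same direction (41 higher, 83 lower) and 32 in opposite directions. Whether a change differed between the genotypes was tested by the interaction, the Dnmt1 KO change minus the control change, which called 530 features (20.5%; 275 higher or 10.7% and 255 lower or 9.88%). The scatter of the changes of Dnmt1 KO against those of control shows both groups of features.

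**Figure D1:**
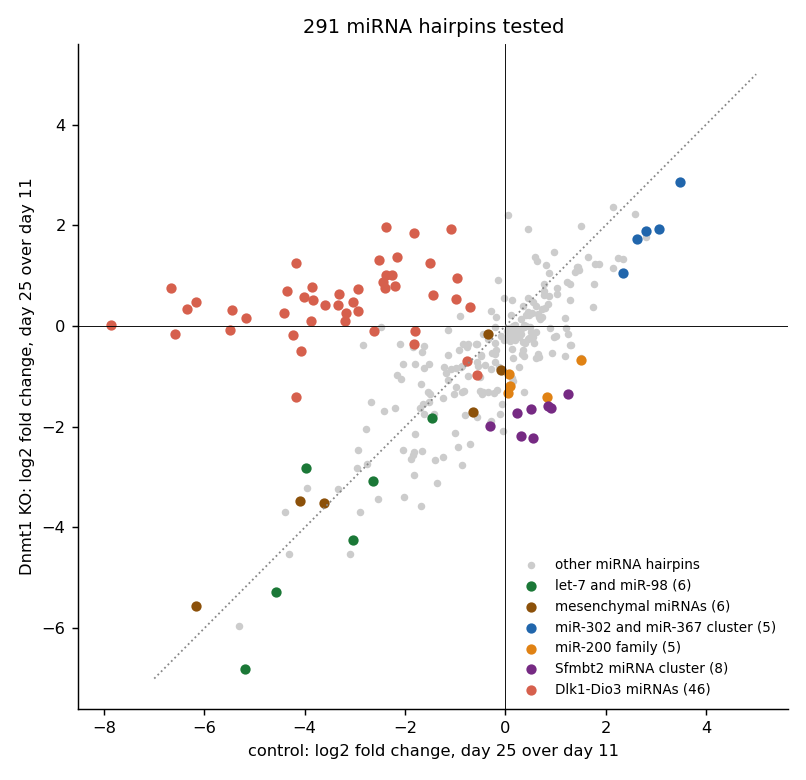
Change from day 11 to day 25 of the 291 tested miRNAs in control (x axis) and in Dnmt1 KO (y axis), in log2 units of RPM + 1; each point is a miRNA, coloured by list, and the diagonal marks equal change. let-7 lies at the lower left in both genotypes, the miR-302/miR-367 cluster at the upper right, the miR-200 family and the Sfmbt2 cluster below the diagonal, and the Dlk1-Dio3 miRNAs far to the left near a Dnmt1 KO change of 0.

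Mature sequences of miRNAs from families described below, whose hairpins fell, are shown first, because 6 of them share a seed. They are given 5′ to 3′ from the RefSeq table for GRCm38.p6, with the seed (bases 2 to 8) in capitals, and the hairpin features that were counted do not tell the arms of a hairpin apart.
let-7i-5p: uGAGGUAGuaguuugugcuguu
let-7b-5p: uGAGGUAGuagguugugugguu
let-7d-5p: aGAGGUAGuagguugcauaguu
let-7g-5p: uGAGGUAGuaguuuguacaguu
let-7f-5p: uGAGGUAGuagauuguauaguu
miR-98-5p: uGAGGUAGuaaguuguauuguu
miR-100-5p: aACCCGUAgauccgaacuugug
miR-10a-5p: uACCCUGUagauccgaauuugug
miR-10b-5p: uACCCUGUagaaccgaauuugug
miR-214-3p: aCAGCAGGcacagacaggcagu
miR-29a-3p: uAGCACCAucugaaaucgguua
miR-221-3p: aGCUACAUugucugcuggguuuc
miR-222-3p: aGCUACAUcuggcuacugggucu
The first 6 carry the let-7 seed GAGGUAG, miR-10a and miR-10b share ACCCUGU, and miR-221 and miR-222 share GCUACAU. Of the 291 tested miRNA features, 261 had a mature sequence in this table.

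let-7, which represses growth and cell cycle genes in differentiated cells, fell as a family. Of 9 let-7 and miR-98 features 6 were tested, all 6 fell in Dnmt1 KO (background 26.3% of features lower), and all 6 fell in control (33.8%). *Mirlet7i* (NCBIM37 chromosome 10, 122422696 to 122422780, minus strand) had 961, 1081 and 981 RPM on day 11 and 16.6, 7.56 and 3.87 RPM on day 25. The means differed 108-fold, with no overlap between days. The log2 change was -6.80 ± 0.20 (limma adjusted p = 7.47e-27, n = 3 against 3), where ± gives the SE from the spread pooled over 36 libraries. In control *Mirlet7i* went from 814, 825 and 806 RPM to 21.9, 22.3 and 19.7 RPM, a smaller fall (interaction -1.61 ± 0.29, limma adjusted p = 4.96e-05).

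The other let-7 hairpins fell as well. *Mirlet7b* had 38.7, 39.5 and 35.2 RPM on day 11 and no read in any day 25 library, so it was at least 24.9-fold lower against a floor of 3 reads over the group. *Mir98*, which lies with *Mirlet7f-2* inside *Huwe1* on the X chromosome (148347757 to 148347864), went from 90.7, 92.9 and 95.2 RPM to 6.03, 2.52 and 3.87 RPM. *Mirlet7d* fell from 130, 141 and 126 RPM to 13.6, 20.2 and 11.6 RPM. In each of these the day 25 libraries lie below every day 11 library. *Mirlet7g*, inside *Wdr82*, was the only let-7 member that fell less in Dnmt1 KO than in control: it kept 21.1, 26.5 and 31.0 RPM on day 25 in Dnmt1 KO and 30.3, 3.44 and 6.56 RPM in control (interaction 1.17 ± 0.43, limma adjusted p = 0.0467), where 1 control library lies within the Dnmt1 KO range. Summed over the family, Dnmt1 KO libraries held 1462 to 1607 RPM on day 11 and 65.9 to 76.9 RPM on day 25, a 20.9-fold difference, and control libraries 1215 to 1249 and 57.9 to 106 RPM. In Dnmt1 KO all 6 kept their call and direction under library totals, median-ratio factors and trimmed-mean factors over all features.

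**Figure D2:**
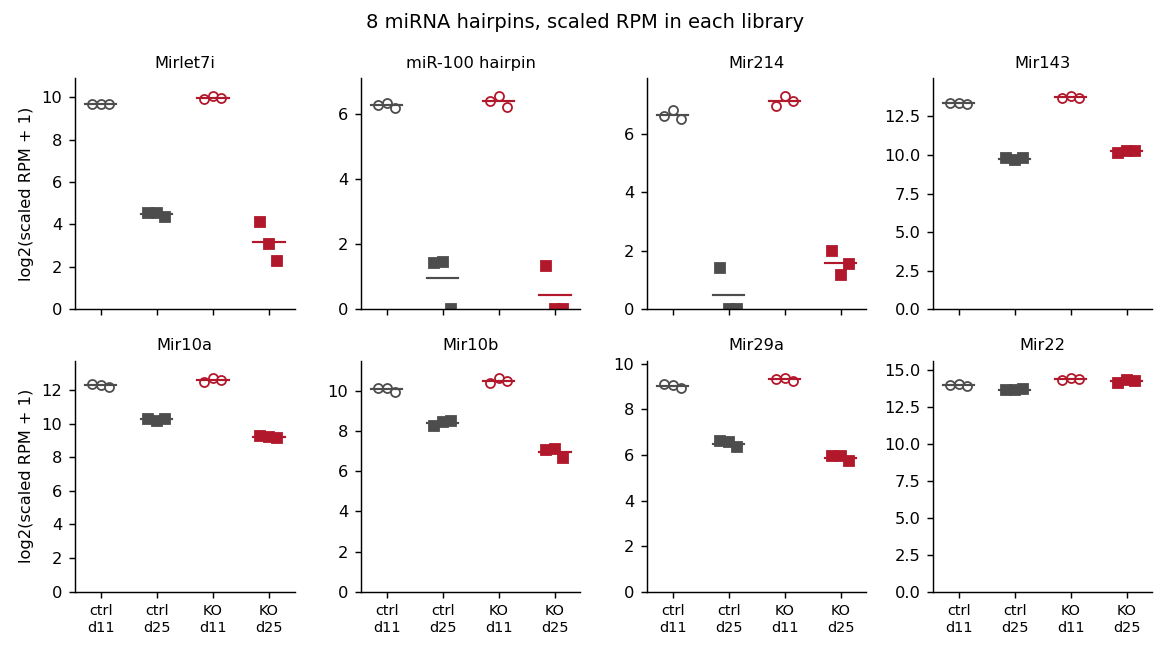
Level of 8 miRNA hairpins in each day 11 and day 25 library of Dnmt1 KO and control (y axis, log2 of scaled RPM + 1; points are libraries, lines are group means). Mirlet7i, the miR-100 hairpin, Mir214, Mir143, Mir10a, Mir10b and Mir29a are lower in all 3 day 25 libraries of both genotypes, whereas Mir22 is at nearly the same level on both days.

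The hairpins of miR-100 and of miR-214, both known from mesenchymal and other differentiated cells, were close to absent on day 25. The miR-100 hairpin (chromosome 9, 41339508 to 41339587, inside the long transcript *D230004N17Rik*; listed as CT009696.2) had 84.3, 94.4 and 73.7 RPM on day 11 and 1.51, 0 and 0 RPM on day 25, which is 1 read. The pooled fall was 168-fold with a 95% counting interval of 30.1 to 6636. In control this hairpin went from 76.7, 79.8 and 72.0 RPM to 1.68, 1.72 and 0 RPM. For the hairpin the interaction did not pass (-0.65, limma adjusted p = 0.229). Its host *D230004N17Rik* went from 298, 320 and 265 RPM to 10.6, 10.1 and 5.81 RPM and fell further than in control (log2 change -4.95 ± 0.18 against -3.53 ± 0.18; interaction -1.42, limma adjusted p = 4.91e-05). *Mir214* (chromosome 1, 164153499 to 164153608, inside *Dnm3os* and *Dnm3*) went from 125, 159 and 138 RPM to 3.01, 1.26 and 1.94 RPM, 4 reads in all and 67.8-fold lower. In control *Mir214* went from 96.6, 111 and 90.2 RPM to 1.68, 0 and 0 RPM, and the interaction did not pass (0.61, limma adjusted p = 0.2). Its neighbour *Mir199a-2* fell from 17.3, 20.1 and 18.9 RPM to 1.51, 1.26 and 0 RPM (pooled fall 18.6-fold, counting interval 5.11 to 155). The features of the host genes *Dnm3os* (log2 change -5.37) and *Dnm3* (-5.14) hold the same reads and are no separate evidence. In control they changed by -6.39 and -5.68. *Dnm3os* fell less in Dnmt1 KO (interaction 1.01, limma adjusted p = 0.0219), with 1 control read on day 25. 2 other features were among the 8 of largest fall: *Mir2137* inside *Zfp185* (55.1, 49.2 and 53.1 RPM to 1.51, 0 and 3.87 RPM) and *Egfem1* (73.8, 150 and 72.5 RPM to 1.51, 1.26 and 1.94 RPM). With 3 reads each on day 25, their pooled falls were 34.4-fold (counting interval 11.7 to 167) and 67.8-fold (23.2 to 329). For neither did the interaction pass (limma adjusted p = 0.802 and 0.601).

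miR-143 and miR-145 are known for smooth muscle and fibroblasts, and miR-21 and miR-22 are widespread miRNAs that are abundant in mesenchyme. Of 6 tested mesenchymal miRNAs 5 fell in Dnmt1 KO (median log2 change -2.58) and 5 fell in control (-2.13). Over all features 26.3% fell in Dnmt1 KO and 33.8% in control. *Mir143* had 13249, 14860 and 13198 RPM on day 11 and 1139, 1241 and 1242 RPM on day 25, against 10825, 10556 and 10244 RPM and then 889, 803 and 900 RPM in control. The falls of -3.51 ± 0.10 in Dnmt1 KO and -3.61 ± 0.10 in control were not told apart (interaction 0.10 ± 0.15, limma adjusted p = 0.68). *Mir145* of the same cluster fell from 89.1, 108 and 104 RPM to 31.7, 27.7 and 31.0 RPM, and there the fall was larger in Dnmt1 KO (interaction -1.05, limma adjusted p = 0.000458). *Mir21*, inside *Vmp1*, went from 11271, 11614 and 10747 RPM to 6000, 6619 and 5802 RPM in Dnmt1 KO (-0.87 ± 0.11, limma adjusted p = 7.38e-09) and had a change of -0.09 ± 0.11 in control, so that the genotypes differed (interaction -0.78, limma adjusted p = 0.000179). *Mir22*, with 20990, 22663 and 21710 RPM on day 11 and 17821, 21023 and 20065 RPM on day 25, did not pass the test (limma adjusted p = 0.357), but was called lower under trimmed-mean factors over all features (-0.64). Summed, the 7 mesenchymal features had 45741 to 49425 RPM on day 11 and 24996 to 28913 RPM on day 25 in Dnmt1 KO, and 33757 to 36362 and 20741 to 22119 RPM in control. They are the list that would mark feeder fibroblasts or differentiated cells; they moved with let-7, miR-100 and the families below, and their part in those results was not tested.

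The miRNAs of the Hox clusters, which are made with the Hox transcription factors that set position along the body axis, fell in both genotypes, 4 of them further in Dnmt1 KO. Of 6 members tested 4 fell in Dnmt1 KO and 5 in control, and the interaction called 4 lower and 1 higher. Over all features 26.3% fell in Dnmt1 KO and 33.8% in control, and the interaction called 9.88% lower and 10.7% higher. *Mir10a* (chromosome 11, 96178479 to 96178588, inside *Hoxb4*) went from 5713, 6677 and 6141 RPM to 606, 591 and 554 RPM, while control went from 5246, 4994 and 4578 RPM to 1259, 1145 and 1253 RPM. The log2 changes were -3.40 ± 0.12 and -2.02 ± 0.12 (interaction -1.38 ± 0.17, limma adjusted p = 4.1e-08). *Mir10b*, which shares its seed, went from 1366, 1594 and 1445 RPM to 131, 139 and 101 RPM within *Hoxd3* and *Hoxd4*, again below the control of day 25 (301, 349 and 362 RPM; interaction -1.88 ± 0.21, limma adjusted p = 2.65e-09). *Mir615* had 10.7, 7.13 and 5.98 RPM on day 11 and no read on day 25, at least 5.22-fold lower. *Mir196b* fell from 22.6, 29.6 and 24.6 RPM to 10.6, 7.56 and 3.87 RPM, and *Mir196a-2* had a log2 change of -0.52 that did not pass. Summed over the list, the Dnmt1 KO libraries went from 7142 to 8331 RPM on day 11 to 688 to 769 RPM on day 25, and control from 5618 to 6412 RPM to 1525 to 1631 RPM.

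In the miR-29, miR-148 and miR-152 list 3 of 5 tested hairpins fell and 1 rose, in miR-221 and miR-222 both fell, and in miR-130 and miR-301 3 of 4 fell (background 26.3% of features lower and 24.5% higher). *Mir29a*, whose product targets collagens and *de novo* methyltransferases, had 641, 665 and 611 RPM on day 11 and 60.3, 61.7 and 52.3 RPM on day 25 (-3.44 ± 0.10, limma adjusted p = 4.6e-27), a larger fall than in control (interaction -0.90, limma adjusted p = 4.2e-06). *Mir29c* of the same seed had a log2 change of 0.57 (limma adjusted p = 0.0348), a call that was lost without either of day 11 replicates 1 and 3 or day 25 replicates 2 and 3 (limma adjusted p = 0.06985 to 0.1283). *Mir152*, of the miR-148 family that targets *Dnmt1* itself, went from 209, 198 and 176 RPM to 18.1, 16.4 and 27.1 RPM. Its relative *Mir148a* went from 13561, 14148 and 12994 RPM to 6871, 7636 and 6761 RPM. *Mir152* fell less in Dnmt1 KO than in control (interaction 0.75, limma adjusted p = 0.0385). The X-linked neighbours *Mir221* (270, 289 and 266 RPM to 19.6, 20.2 and 21.3 RPM) and *Mir222* (279, 291 and 275 RPM to 69.3, 61.7 and 58.1 RPM) lost -3.69 ± 0.22 and -2.15 ± 0.14 on the log2 scale. For both, the difference from control did not pass the test (limma adjusted p = 0.0673 and 0.221). *Mir301b* fell from 392, 429 and 375 RPM to 49.7, 70.6 and 69.7 RPM and *Mir301* from 1970, 2112 and 1836 RPM to 556, 571 and 632 RPM, whereas *Mir130a* of the same family had a log2 change of 0.01.

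Changes were smaller in other groups. *Mir182*, of the sensory-organ cluster miR-183/miR-96/miR-182 on chromosome 6, had 149807, 143652 and 138973 RPM on day 11 and 83379, 77642 and 81549 RPM on day 25 (-0.83 ± 0.10, limma adjusted p = 1.34e-09). *Mir183* went from 14764, 14937 and 13023 RPM to 5878, 6217 and 6306 RPM, and *Mir96*, of the same transcript, had a change of -0.20 that did not pass. The falls of *Mir182* and *Mir183* did not differ detectably from control (interaction 0.15 ± 0.14 and -0.23 ± 0.17). As a share of the library the cluster went from 15.2 to 8.92%, with an exact permutation p of 0.1, the smallest that 3 against 3 libraries can give (adjusted 0.104 over 28 lists). Of 6 miR-30 hairpins 3 fell and 1, *Mir30c-1*, was called higher (0.48, limma adjusted p = 0.0182). Over all features 26.3% fell and 24.5% rose. The days of *Mir30c-1* overlap, and its call was lost without day 11 replicate 2 or day 25 replicates 1 or 3, with thinned reads, with median-ratio factors, under trimmed-mean factors over all features, without a filter and in a fit of the 12 libraries. *Mir30a* (7322, 7683 and 7308 RPM to 4080, 4234 and 4276 RPM) fell less than in control (interaction 0.79, limma adjusted p = 0.000391).

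**Figure D3:**
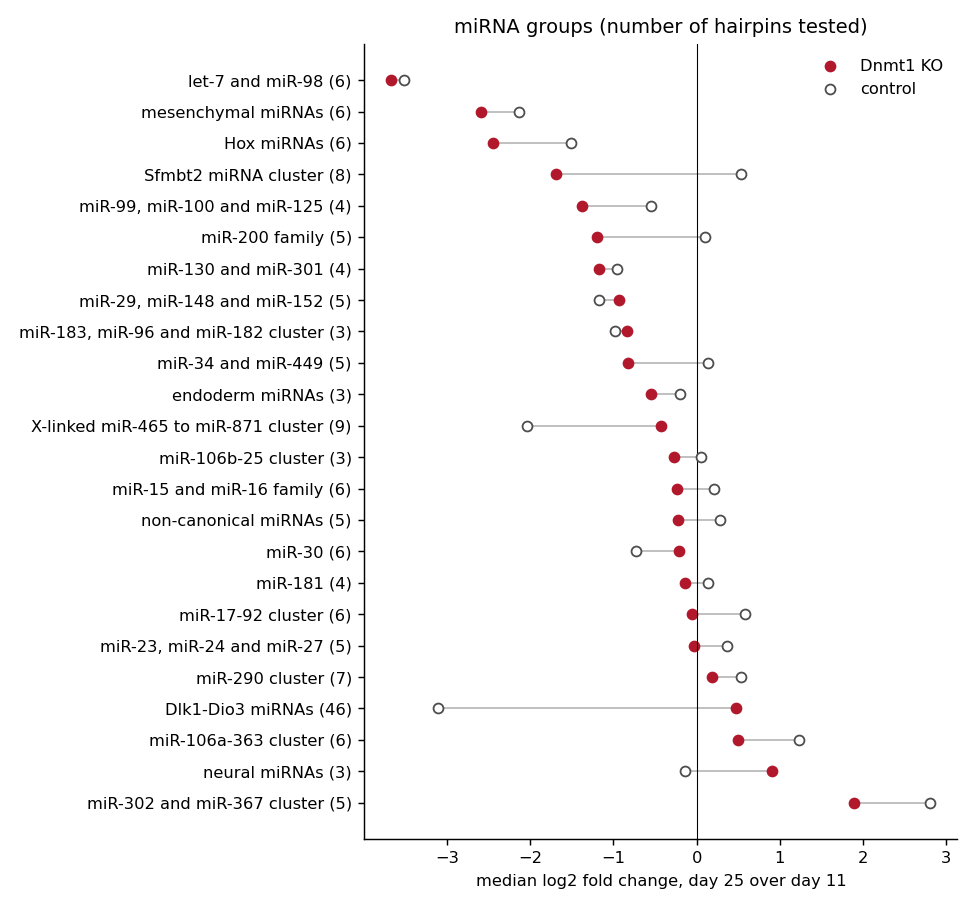
Median log2 change from day 11 to day 25 of each miRNA list with at least 3 tested hairpins, in Dnmt1 KO (filled points) and in control (open points; x axis, log2 of RPM + 1; y axis, lists with the number tested). let-7, the mesenchymal and the Hox miRNAs lie far to the left in both genotypes, the miR-302/miR-367 cluster to the right in both, and the Dlk1-Dio3 miRNAs at 0.47 in Dnmt1 KO against -3.10 in control.

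The next sequences compare the miRNAs characteristic of ESCs, since several members of the clusters share a seed and the clusters moved unequally (RefSeq, GRCm38.p6, seed in capitals).
miR-302b-3p: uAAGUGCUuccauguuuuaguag
miR-302d-3p: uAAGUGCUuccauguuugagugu
miR-295-3p: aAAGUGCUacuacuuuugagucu
miR-294-3p: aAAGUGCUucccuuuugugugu
miR-291a-3p: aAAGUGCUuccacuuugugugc
miR-17-5p: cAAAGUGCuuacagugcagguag
miR-93-5p: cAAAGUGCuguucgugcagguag
miR-20b-5p: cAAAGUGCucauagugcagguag
miR-367-3p: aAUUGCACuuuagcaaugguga
miR-92a-3p: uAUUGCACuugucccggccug
The miR-302 and miR-290 members printed here carry AAGUGCU. In miR-17, miR-93 and miR-20b the same letters AAGUGC stand a base further from the 5′ end, and miR-367 and miR-92a share AUUGCAC.

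The miR-302/miR-367 cluster, known from primed pluripotent cells and the early epiblast, rose on day 25. All 5 members tested rose in Dnmt1 KO (background 24.5% of features higher, median log2 change 1.89), 4 of them also under trimmed-mean factors over all features. All 5 rose in control as well (background 25.5%, median log2 change 2.81). *Mir302d* (chromosome 3, 127248542 to 127248607, inside *Larp7*) went from 59.0, 39.7 and 47.6 RPM to 182, 212 and 155 RPM in Dnmt1 KO, and from 63.5, 40.0 and 39.3 RPM to 342, 347 and 306 RPM in control. The days do not overlap in either genotype, and the rise was smaller in Dnmt1 KO (1.89 ± 0.16 against 2.81 ± 0.16; interaction -0.92 ± 0.22, limma adjusted p = 0.0025). *Mir302a* behaved alike (53.8, 37.5 and 31.8 RPM to 143, 174 and 151 RPM; interaction -1.13, limma adjusted p = 0.000173). *Mir302b* had 26.0, 19.8 and 19.1 RPM and then 61.8, 85.7 and 75.6 RPM. *Mir367* had 3.60 ± 0.495 RPM and then 33.0 ± 7.74 RPM (mean ± SD, n = 3 each), and its smaller rise than in control did not pass (limma adjusted p = 0.217). The sum of the cluster was 104 to 147 RPM on day 11 and 428 to 509 RPM on day 25 in Dnmt1 KO, and 93.9 to 137 and 758 to 897 RPM in control. Day 1 of the same course had held 906 to 1036 RPM in Dnmt1 KO, so day 25 lay above day 11 and below day 1.

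The miR-290 cluster, the main miRNA cluster of mouse ESCs, was present in full on both days. The sum over its 7 hairpins was 117002 to 120717 RPM on day 11 and 132355 to 139274 RPM on day 25. In Dnmt1 KO 3 of 7 rose and none fell (24.5% and 26.3% of all features), and in control 6 rose (25.5%). *Mir295* (chromosome 7, 3220774 to 3220842) had 66301, 64034 and 68634 RPM on day 11 and 76876, 77486 and 82167 RPM on day 25 (0.25 ± 0.08, limma adjusted p = 0.00573). *Mir293* went from 13251, 12392 and 11933 RPM to 17236, 16564 and 17008 RPM. Changes of this size turn with the scaling: *Mir295* had 0.12 (limma adjusted p = 0.25) with median-ratio factors, and with trimmed-mean factors over all features 4 of the 7 were called lower and none higher.

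The relatives of this family that drive the cell cycle, the miR-17-92, miR-106a-363 and miR-106b-25 clusters, were split. *Mir17* (chromosome 14, 115442893 to 115442976, in *Mir17hg*) fell from 981, 929 and 907 RPM to 645, 823 and 794 RPM in Dnmt1 KO and rose in control from 1424, 1336 and 1328 RPM to 1779, 1772 and 1674 RPM (interaction -0.68 ± 0.13, limma adjusted p = 0.000138). The fall of -0.32 in Dnmt1 KO was -0.18 without day 25 replicate 1 and then missed the threshold (limma adjusted p = 0.1151). *Mir93*, in an intron of *Mcm7* on chromosome 5 (138606751 to 138606838), went from 2633, 2552 and 2422 RPM to 1708, 1900 and 1827 RPM in Dnmt1 KO. In control it went from 4357, 4229 and 4247 RPM to 5345, 5502 and 5623 RPM. The opposite changes (-0.49 ± 0.08 and 0.36 ± 0.08) differed beyond the spread (interaction -0.85 ± 0.11, limma adjusted p = 5.24e-08). *Mir92-1*, from the same transcript as *Mir17* but with the other seed, rose in both genotypes (35976, 30618 and 31087 RPM to 42142, 39702 and 43688 RPM in Dnmt1 KO) and less in Dnmt1 KO (interaction -0.43, limma adjusted p = 0.0108). Under trimmed-mean factors over all features the change of *Mir92-1* in Dnmt1 KO turned to -0.13 and did not pass. *Mir18b* of the X-linked cluster rose from 145, 103 and 93.3 RPM to 259, 277 and 252 RPM, and its neighbour *Mir20b* had a log2 change of -0.27 (limma adjusted p = 0.0203) that missed the threshold without day 11 replicate 1 or day 25 replicates 1 or 3 (limma adjusted p = 0.05614 to 0.2071). *Mir92-1* and *Mir92-2*, like other hairpins with identical mature arms, can share reads, so their split is uncertain. In Dnmt1 KO 2 of 6 members rose and 2 fell in miR-17-92, and 3 of 6 rose and 1 fell in miR-106a-363. In miR-106b-25 none of 3 rose and 2 fell. Control had 5, 5 and 1 rises. Over all features 24.5% rose and 26.3% fell in Dnmt1 KO, and 25.5% rose in control. The Dnmt1 KO counts of miR-17-92 lie near these shares.

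The miR-200 family, which holds the epithelial state by repressing *Zeb1* and *Zeb2*, fell in Dnmt1 KO and did not fall in control. Its sequences are printed because the 5 members split into 2 seeds (RefSeq, GRCm38.p6).
miR-200b-3p: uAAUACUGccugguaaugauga
miR-200c-3p: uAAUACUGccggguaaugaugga
miR-429-3p: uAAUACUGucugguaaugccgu
miR-200a-3p: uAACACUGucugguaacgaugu
miR-141-3p: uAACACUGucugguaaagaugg
All 5 hairpins fell in Dnmt1 KO (median log2 change -1.19), 2 rose and none fell in control, and the interaction called all 5 lower. Over all features 26.3% fell in Dnmt1 KO, 25.5% rose and 33.8% fell in control, and the interaction called 9.88% lower. *Mir200b* (chromosome 4, 155429790 to 155429859, in *Ttll10*) had 1323, 1518 and 1555 RPM on day 11 and 811, 740 and 715 RPM on day 25. Control had 1529, 1521 and 1477 RPM and then 1573, 1451 and 1761 RPM, which overlap (interaction -1.03 ± 0.14, limma adjusted p = 2.21e-07). *Mir429*, from the same transcript, went from 439, 511 and 482 RPM to 202, 169 and 198 RPM, against 504, 502 and 470 RPM and then 540, 502 and 490 RPM in control (interaction -1.38 ± 0.13, limma adjusted p = 4.85e-11). *Mir200a* fell from 263, 298 and 308 RPM to 106, 121 and 155 RPM. The second transcript, on chromosome 6, carries *Mir200c* (72.4, 79.0 and 71.8 RPM to 33.2, 44.1 and 13.6 RPM) and *Mir141* (305, 309 and 280 RPM to 154, 204 and 203 RPM). In control *Mir141* rose from 347, 286 and 297 RPM to 895, 861 and 895 RPM, so that the interaction reached -2.19 ± 0.23 (limma adjusted p = 1.02e-09). The sum over the family went from 2401 to 2715 RPM to 1278 to 1305 RPM in Dnmt1 KO and from 2583 to 2777 RPM to 3255 to 3603 RPM in control. In Dnmt1 KO these 5 kept their call and direction under library totals, median-ratio factors and trimmed-mean factors over all features.

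**Figure D4:**
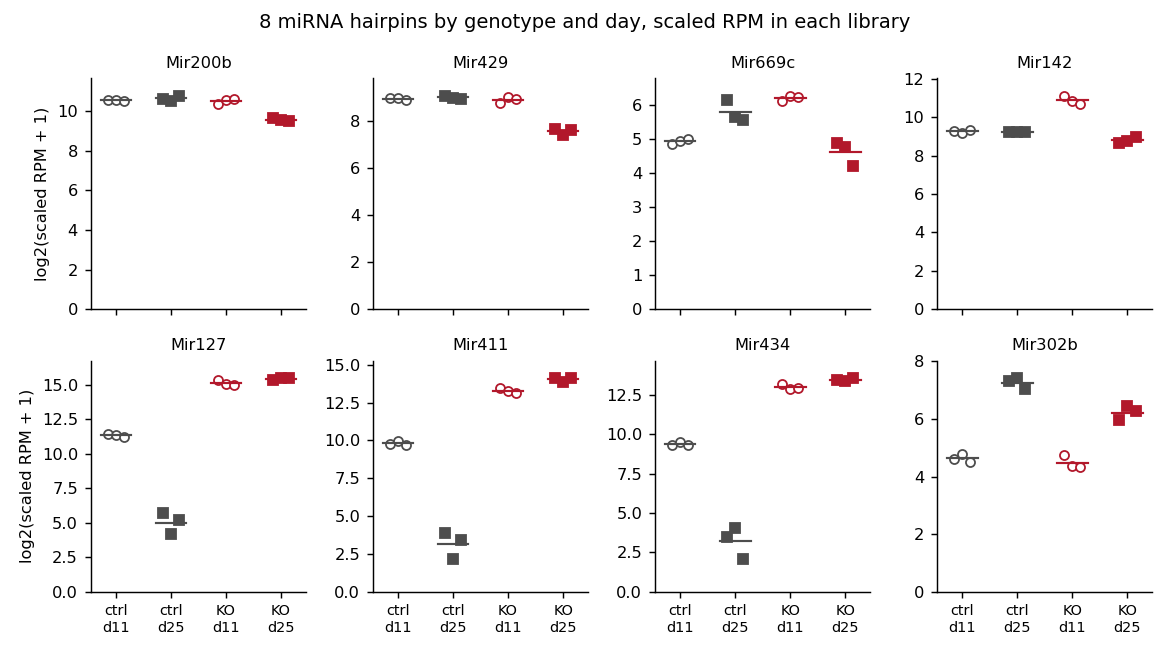
Level of 8 miRNA hairpins in each day 11 and day 25 library of both genotypes (y axis, log2 of scaled RPM + 1; points are libraries, lines are group means). Mir200b, Mir429, Mir669c and Mir142 are lower on day 25 in Dnmt1 KO and at the same level or higher in control, Mir127, Mir411 and Mir434 are far lower in control and level or higher in Dnmt1 KO, and Mir302b rises in both.

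The miRNAs of the *Sfmbt2* intron, which are strongest in early embryos and placenta, fell in Dnmt1 KO, and 4 of them rose in control. Of 119 features 8 passed the filter on low values. In Dnmt1 KO 28 had a read among the day 11 libraries and 15 among the shallower libraries of day 25, and in control 21 on either day. Such counts also depend on depth. All 8 tested features fell in Dnmt1 KO (26.3% of all features), and the interaction called all 8 lower (9.88% of all features), with a median of -2.47. In control 4 rose (25.5% of all features). *Mir467d* (chromosome 2, 10429257 to 10429341) went from 97.0, 95.1 and 90.0 RPM to 22.6, 16.4 and 19.4 RPM. In control it went from 43.7, 50.2 and 47.8 RPM to 65.6, 73.9 and 70.0 RPM (interaction -2.78 ± 0.20, limma adjusted p = 2.69e-14). The day 11 libraries of Dnmt1 KO lie above the controls and the day 25 libraries below them. *Mir669c* showed the same order (68.6, 77.0 and 74.2 RPM to 28.6, 26.5 and 17.4 RPM in Dnmt1 KO, against 28.3, 29.8 and 31.2 RPM to 70.7, 49.8 and 45.9 RPM), as did *Mir467c* (interaction -2.61). The feature of *Sfmbt2* itself went from 420, 425 and 431 RPM to 124, 139 and 126 RPM. In control it went from 214, 212 and 181 RPM to 370, 363 and 346 RPM (interaction -2.54 ± 0.13, limma adjusted p = 3.88e-19). It holds almost only the reads of these miRNAs and is no separate evidence. Its Dnmt1 KO means were 425 and 129 RPM, where the cluster summed to 422 and 125 RPM. In control they were 202 and 359 RPM, where the cluster summed to 200 and 358 RPM. The hairpins are near-identical copies, so the split of reads between them is uncertain, whereas their sum, 416 to 427 RPM on day 11 and 116 to 135 RPM on day 25, depends less on it.

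miR-142, a miRNA of blood cells that is also known to vary within ESC populations, fell in Dnmt1 KO and not in control.
miR-142a-3p: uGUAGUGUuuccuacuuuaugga
*Mir142* (chromosome 11, 87570366 to 87570429) had 2253, 1869 and 1641 RPM on day 11 and 405, 438 and 500 RPM on day 25. Control libraries stayed between 572 and 643 RPM on day 11 and between 594 and 599 RPM on day 25. Dnmt1 KO therefore lay above control on day 11 and below it on day 25 (interaction -2.05 ± 0.23, limma adjusted p = 2.65e-09). The other blood miRNA tested, *Mir150*, rose in both genotypes (143, 112 and 109 RPM to 309, 280 and 343 RPM in Dnmt1 KO).

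The miR-34 hairpins, targets of p53, showed the same sign of difference with a smaller size. *Mir34c* (chromosome 9, 50911139 to 50911215) went from 1888, 1844 and 1641 RPM to 1019, 984 and 982 RPM, and control from 1349, 1242 and 1264 RPM to 1122, 911 and 1158 RPM (interaction -0.57 ± 0.14, limma adjusted p = 0.00263). *Mir34b* (interaction -1.17) and *Mir34a* (-0.70) also fell more in Dnmt1 KO. *Mir449a* and *Mir449c*, which carry related seeds and lie in *Cdc20b*, rose instead, from 2.96, 2.01 and 1.68 RPM to 21.1, 12.6 and 13.6 RPM and from 2.28, 2.56 and 1.91 RPM to 7.54, 11.34 and 11.6 RPM, all at a few reads per library on day 25.

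The imprinted Dlk1-Dio3 miRNAs of distal chromosome 12 stayed high in Dnmt1 KO while they all but disappeared from control. Sequences of hairpins that stayed level, rose and fell are shown (RefSeq, GRCm38.p6), and no seed is shared among them.
miR-127-3p: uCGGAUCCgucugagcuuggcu
miR-434-3p: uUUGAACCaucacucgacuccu
miR-411-5p: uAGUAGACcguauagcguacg
miR-496a-3p: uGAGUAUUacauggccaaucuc
miR-329-3p: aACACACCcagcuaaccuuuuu
Of 57 features 46 were tested. In Dnmt1 KO 19 rose, 3 fell and 24 were not called (median log2 change 0.47), whereas in control none rose and 44 fell (median -3.10). The interaction called 43 higher. Over all features, 24.5% rose and 26.3% fell in Dnmt1 KO, 33.8% fell in control, and the interaction called 10.7% higher. Summed, the region's miRNAs had 84582 to 104422 RPM on day 11 and 119141 to 124630 RPM on day 25 in Dnmt1 KO, a ratio of 1.31. Control held 5738 to 6340 RPM and then 79.1 to 133 RPM, 59.4-fold lower. Expressed per library total, the share in Dnmt1 KO went from 8.82 to 12.4% (exact permutation p = 0.1, the smallest possible; adjusted 0.104).

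*Mir127*, a hairpin antisense to the retrotransposon-derived gene *Rtl1* (chromosome 12, 110831042 to 110831138), had 41065, 35052 and 32204 RPM on day 11 and 42848, 46162 and 46389 RPM on day 25. Its log2 change of 0.33 ± 0.18 did not pass (limma adjusted p = 0.137). In control it fell from 2814, 2671 and 2426 RPM to 50.5, 17.2 and 35.0 RPM, and the interaction was 6.68 ± 0.26 (limma adjusted p = 4.77e-23). *Mir434*, its neighbour in *Rtl1*, likewise did not pass in Dnmt1 KO (9147, 7586 and 7762 RPM to 11298, 10450 and 12052 RPM, limma adjusted p = 0.0639). With library totals as the scale both passed (limma adjusted p = 0.03971 and 0.02612), with log2 changes of 0.42 and 0.56. *Mir411* (chromosome 12, 110948385 to 110948480) rose from 11330, 9895 and 9113 RPM to 17830, 15265 and 17897 RPM (0.75 ± 0.21, limma adjusted p = 0.00262), which missed the threshold under trimmed-mean factors over all features (0.26, limma adjusted p = 0.2566). Its control libraries went from 860, 979 and 846 RPM to 13.46, 3.44 and 9.84 RPM.

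Members of the region did not all move alike in Dnmt1 KO. *Mir496*, in the long transcript *Mirg*, rose from 29.2, 27.6 and 25.13 RPM to 113, 134 and 85.2 RPM (1.96 ± 0.26, limma adjusted p = 3.31e-08). The miR-409 hairpin (listed as AC121784.1) rose from 2701, 2147 and 2096 RPM to 5509, 5417 and 5446 RPM. *Mir329* fell from 197, 179 and 180 RPM to 73.9, 61.7 and 71.7 RPM (-1.41 ± 0.17, limma adjusted p = 4.48e-09), although it lies a few kilobases from *Mir411*. No day 11 library of these overlaps a day 25 library. In control *Mir496* and *Mir329* had no read on day 25 and were at least 2.98-fold and 12.1-fold lower than on day 11. *Mir433* (log2 change -0.50) and *Mir1247* (-0.98), which lies at the *Dio3* end, were the other falls. The snoRNA *AF357341* of the same region rose from 276, 264 and 255 RPM to 618, 535 and 575 RPM. Among the 8 host and coding genes tested 6 rose and 1 fell (24.5% and 26.3% of all features). *Meg3*, the non-coding RNA at the imprinted promoter, did not pass (log2 change 0.22, limma adjusted p = 0.597). *Rtl1*, 1 of the 6, had a log2 change of 0.32 (limma adjusted p = 0.0472). This call was lost without day 11 replicate 2 or 3 or day 25 replicate 2 or 3, with median-ratio factors, without a filter and in a fit of the 12 libraries, and trimmed-mean factors over all features turned it to -0.17. *Rtl1*, *Mirg* and *Rian* hold the reads of the miRNAs and snoRNAs within them. The count of rises depends on the scaling: it was 25 with 3 falls under library totals, 18 with 3 falls under median-ratio factors, and 7 with 11 falls (median -0.02) under trimmed-mean factors over all features. The median interaction was 3.61, or 3.36 with members that had no read in control on day 25 set at their bound.

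On the X chromosome, the germline-associated cluster from miR-465 to miR-871 held 4 features whose change was higher in Dnmt1 KO than in control by the interaction, of 9 tested and 20 in all (background 10.7%). In Dnmt1 KO 2 of the 9 fell, a share near that of all features (26.3%), and in control 7 fell (33.8% of all features). *Mir871* (64063603 to 64063679) had 689, 912 and 868 RPM on day 11 and 631, 631 and 641 RPM on day 25 (limma adjusted p = 0.186), and control went from 75.2, 68.6 and 66.4 RPM to 21.9, 6.88 and 24.1 RPM (interaction 1.74 ± 0.32, limma adjusted p = 8.19e-05). *Mir881* fell from 124, 177 and 146 RPM to 87.4, 94.5 and 81.4 RPM in Dnmt1 KO and from 10.9, 11.4 and 10.5 RPM to 3.37, 1.72 and 1.09 RPM in control. The sum in Dnmt1 KO was 1481 to 1933 RPM on day 11 and 1301 to 1331 RPM on day 25, against 99.5 to 112 RPM on day 1.

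**Figure D5:**
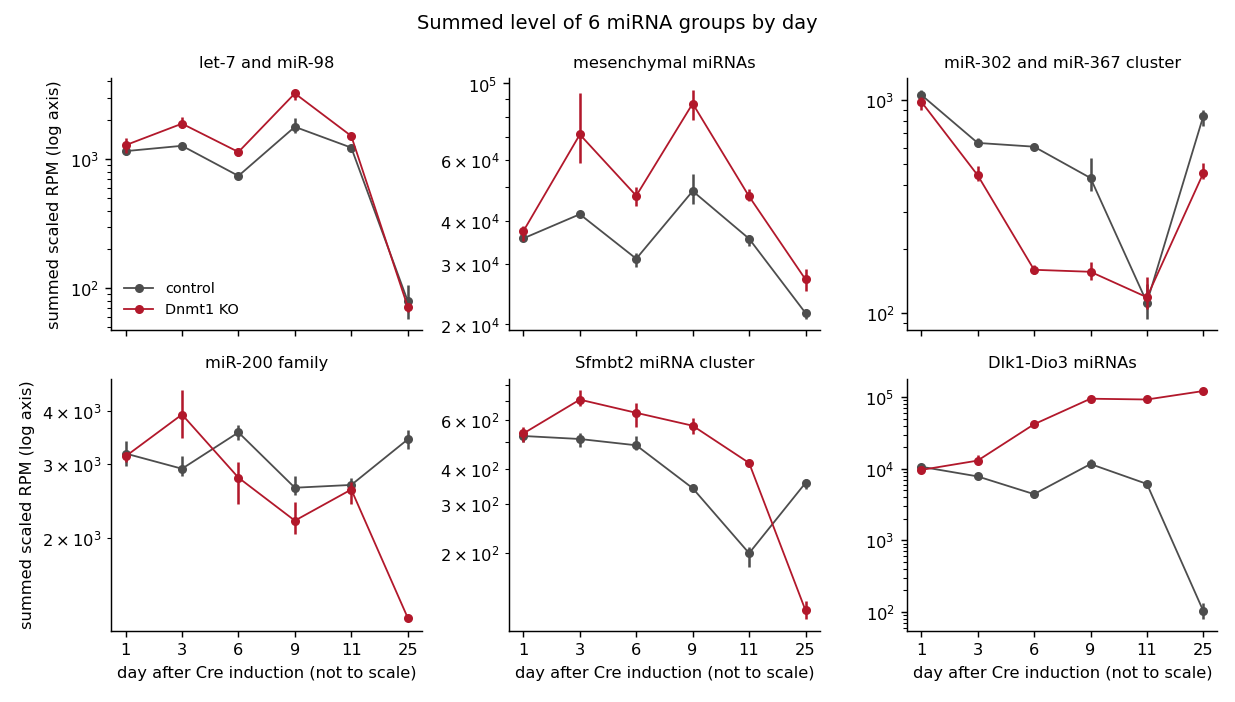
Summed level of lists of miRNAs in Dnmt1 KO and control on days 1, 3, 6, 9, 11 and 25 (x axis, day, not to scale; y axis, summed scaled RPM on a log axis; points are means of 3 libraries, vertical lines their range). let-7 drops after day 11 in both genotypes, the Dlk1-Dio3 sum is higher on day 25 than on day 11 in Dnmt1 KO and far lower in control, and the miR-302/miR-367 sum is higher again on day 25.

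The earlier days place these 2 points on a course. let-7 summed to 1115 to 1460 RPM on day 1 in Dnmt1 KO and to 2890 to 3436 RPM on day 9, so the low of day 25 is the only day of the course at that level. The *Sfmbt2* cluster had its highest sum, 672 to 768 RPM, on day 3 in Dnmt1 KO. *Mir429* lay between 346 and 569 RPM in every Dnmt1 KO library of days 1 to 11, above the day 25 libraries.

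Other miRNAs rose on day 25 in both genotypes. *Mir181d*, of a family active in the immune system and in stem cells, went from 772, 681 and 636 RPM to 1673, 1811 and 1885 RPM (1.36 ± 0.11, limma adjusted p = 5.97e-14; control 1.65). *Mir375*, of pancreatic and gut endoderm, went from 22.8, 18.8 and 27.3 RPM to 51.2, 59.2 and 67.8 RPM and rose less than in control (interaction -0.999, limma adjusted p = 0.0038). *Mir335*, in the imprinted gene *Mest*, went from 1539, 1332 and 1336 RPM to 2372, 2740 and 2424 RPM, and its control libraries from 685, 648 and 634 RPM to 2474, 2341 and 1914 RPM. Markers of other cell types stayed low or mixed. No muscle miRNA of 4 features was tested, and none had a read on day 25. Of the neural list 3 of 8 features were tested and rose, *Mir128-1* from 39.0, 38.2 and 36.1 RPM to 90.4, 73.1 and 107 RPM and a pair of overlapping *Mir219-1* features that hold the same reads. Of the endoderm list 1 rose and 2 fell, where 24.5% of all features rose and 26.3% fell.

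Among features that are no miRNA, the largest rises were fragments of protein-coding genes, and they appeared in both genotypes. *Ndc80*, a kinetochore gene (chromosome 17, 71845440 to 71876197), had 2.96, 2.93 and 3.35 RPM on day 11 and 104, 120 and 60.1 RPM on day 25 (4.49 ± 0.33, limma adjusted p = 1.23e-14; control 5.21 ± 0.33). *Dhx9*, an RNA helicase, went from 70.4, 55.1 and 46.2 RPM to 631, 683 and 684 RPM, and control from 56.9, 50.5 and 63.1 RPM to 698, 657 and 844 RPM. *Cnot8*, a deadenylase gene, and *Armc6* rose by 3.71 and 4.20, and *Dnase1* and *Gm15879*, which overlap and hold the same reads, by 3.82. *Il31ra*, a cytokine receptor gene, rose by 3.81 (2.73, 4.94 and 1.91 RPM to 48.2, 50.4 and 69.7 RPM). *Hnrnph1*, a splicing factor gene, was the only one of these 8 whose rise was larger in Dnmt1 KO than in control by the interaction (27.3, 21.2 and 18.4 RPM to 348, 362 and 378 RPM; interaction 1.07 ± 0.23, limma adjusted p = 0.000777). In earlier libraries *Ndc80* stayed at or below 10.6 RPM in both genotypes. With reads thinned to the shallowest library all 8 were called again, at log2 changes of 3.26 (*Dhx9*) to 5.10 (*Armc6*).

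Fragments of small nucleolar RNAs (snoRNAs), which guide modification of rRNA, fell more often than they rose. Of 134 tested C/D box snoRNAs, the guides of 2′-O-methylation, 21 rose and 78 fell (median -0.42; 24.5% of all features rose and 26.3% fell), and of 70 H/ACA box snoRNAs and scaRNAs, the guides of pseudouridylation, 2 rose and 41 fell (median -0.73). Control had 15 rises and 98 falls, and no rise and 56 falls (25.5% and 33.8% of all features). *Snord104* (chromosome 11, 106362307 to 106362376) fell from 5384, 5892 and 5491 RPM to 1580, 1571 and 1530 RPM, and less than in control (interaction 1.27 ± 0.13, limma adjusted p = 1.56e-10). *SNORD44* in *Gas5* went the other way, from 24289, 19772 and 20421 RPM to 60411, 69020 and 83751 RPM (1.72 ± 0.11, limma adjusted p = 6.82e-17; control 1.41). *RNase_MRP*, the RNA of an rRNA-processing enzyme, fell from 3826, 4619 and 4517 RPM to 1200, 1302 and 1232 RPM, with -1.79 in Dnmt1 KO and -1.92 in control. The minor-spliceosome RNAs split: *U4atac* rose from 312, 292 and 334 RPM to 830, 703 and 606 RPM and *U12* fell from 84.5, 94.6 and 102 RPM to 25.6, 29.0 and 29.1 RPM. Many of these RNAs have near-identical copies, and their counts are uncertain to that extent.

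As shares of the library, miRNA features took 57.0 to 58.2% of reads on day 11 and 52.9 to 55.6% on day 25 in Dnmt1 KO, and lincRNA features, which include hosts such as *Gas5* and *Mirg*, 10.5 to 10.96% and 15.3 to 16.7%. snoRNA features went from 19.3 to 19.7% to 20.7 to 22.3%. In each of these classes the days do not overlap, and the exact permutation p was 0.1, the smallest possible (adjusted 0.16 over 8 classes). The directions depend on which features are counted: the miRNA share rose by 3.35 points without the 5 most abundant features, and without overlapping features the lincRNA share changed by -0.0094 and the snoRNA share by -0.32 points. A read of a miRNA within a gene counts for both features, so the classes add up to more than the library.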

How the data were processed

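Small RNA was sequenced from ESC cultures, 3 libraries per day and genotype, and grouped by sample title. The authors trimmed the reads (Trim Galore 0.3.5), aligned them with Bowtie2 2.2.9 to NCBIM37 (tools and build per the submitters' processing notes) and quantified annotated features in SeqMonk. DESeq2 with an intensity filter served the authors for miRNAs. The values deposited by the authors are RPKM. Whether strand was used in counting was not given in the sources used here, and 855 of 1577 miRNA features (54.2%) lie inside another feature, which then holds the same reads.

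RPM was obtained as RPKM times the feature span in kilobases. Library totals came from the step of 1 read (tolerance 5% of a read). A feature entered the test with at least 10 RPM in at least 3 of the 36 time course libraries without the R1 suffix. RPM were scaled with trimmed-mean (TMM) factors over tested features (30% of log ratios and 5% of abundance trimmed), because factors over all features moved with depth; the latter were kept as an alternative. limma 3.58.1 (limma-trend, R 4.3.3) was run on log2(RPM + 1) of the 36 time course libraries, with 1 mean per day and genotype. The added 1 RPM understates fold changes at low levels. SEs and p-values rest on 1 spread pooled over all days, although replicates correlated less on day 25 than on day 11. A fit of only the 6 Dnmt1 KO libraries called 998 of 1704 features. The tests were two-sided, and p-values were adjusted by Benjamini-Hochberg over all 2582 features. On simulated data the script recovered the set changes but called too many unchanged features of low level, so calls at a few reads on day 25 are less reliable. Shares were compared by an exact two-sided permutation test. Counting intervals are exact at 95% and, like the floor of 3 reads over a group, cover counting error only.

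Features were named by rule: the 8 largest rises and falls among called features without overlap between days and with at least 50 RPM in the higher group, the 4 largest interactions each way under the same conditions, from each list the member of highest level and the best call in each direction, *Dnmt1* and *Mir93*. Other named features are members of the lists. The members and lists were chosen with earlier results of these data known, so no list was given a set test. Same-numbered libraries of days 11 and 25 had deviations correlating at -0.034, 0.009 and -0.010 in Dnmt1 KO, so numbers were not taken as pairs. The AGO2, germ cell and remaining libraries were not used here; the libraries titled R1 served as an alternative day 11.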

Additional observations from a re-analysis of the deposited data

Results flagged for a closer look

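Day 25 against day 11 changed by different amounts in Dnmt1 KO and control for the features below, each past the threshold of the interaction test in limma (Dnmt1 KO change minus control change, log2 scale, adjusted over 2582 features, of which 20.5% passed). Groups of 3 libraries were not tested for single outlying libraries.

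In the imprinted Dlk1-Dio3 region the values were 7.41 for *Mir411*, 6.68 for *Mir127*, 6.63 for *Mir434*, 6.68 for *Rtl1*, 4.50 for *AF357341*, 4.34 for *Mir496* and 2.76 for *Mir329*. The control libraries of day 25 had no read of *Mir496* and *Mir329*, so those 2 values depend on the pseudocount. They held 1 read of *AF357341*, so its value depends on the pseudocount as well. On the X chromosome *Mir871* had 1.74.

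For the *Sfmbt2* intron the values were -2.78 (*Mir467d*), -2.61 (*Mir467c*), -2.53 (*Mir467e*) and -2.54 (*Sfmbt2*). The *Sfmbt2* feature holds almost only the reads of these miRNAs. The miR-200 hairpins *Mir200b* and *Mir429* had -1.03 and -1.38, and *Mir142* had -2.05. *Mir34c* had -0.57 and *Mir449c* -1.03.

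Among the ESC clusters and their relatives *Mir302d* had -0.92, *Mir302a* -1.13, *Mir92-1* -0.43, *Mir17* -0.68, *Mir18b* -0.65, *Mir20b* -0.45 and *Mir93* -0.85. Among miRNAs of differentiated cells *Mirlet7i* had -1.61, *Mir10a* -1.38, *Mir29a* -0.90, *Mir301b* -0.76, *Mir23b* -0.79, *Mir26a-2* -1.48, *Mir150* -0.89, *Mir375* -0.999, and *Mir181a-1* 1.02. The miR-100 host *D230004N17Rik* had -1.42, *Dnm3os* 1.01 and *Mest* -0.92. On day 25 *Dnm3os* had 6 reads in Dnmt1 KO and 1 in control, so its value depends on the pseudocount. Of the other RNAs *Hnrnph1* had 1.07, *Snord104* 1.27, *Scarna6* 0.78 and SCARNA14 in *Tipin* -0.51.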

How the results depend on the processing

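The 1313 calls of 2582 tested in Dnmt1 KO became 746 of 1010 with at least 10 reads in all 6 libraries. With reads thinned to the shallowest library they were 863 of 3134. They were 193 of 291 for miRNAs alone and 469 of 1115 without overlapping features. With a mean of at least 20 RPM they were 738 of 985 (286 higher, 452 lower). The 1531 calls in control became 2370 of 24119 without a filter and 787 of 1010 under the read minimum. They were 217 of 291 for miRNAs alone, 606 of 1115 without overlap and 800 of 985 under the mean level. The 530 interaction calls became 350 of 2268 in a fit of 12 libraries and 318 of 2582 with limma-voom. They were 231 of 3134 thinned, 173 of 291 for miRNAs alone and 212 of 1115 without overlap. The smaller counts of the restricted sets rest on fewer features or reads; for the fit of 12 libraries and voom the cause was not tested. Trimmed-mean factors over all features and the mean level were chosen after seeing the data.

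Of 100 named features, most changes kept their direction. Trimmed-mean factors over all features turned *Rtl1* (-0.17), *Mir127* (-0.16), *Mir434* (-0.024), *Mir295* (-0.24), *Mir293* (-0.055), *Mir92-1* (-0.13), *Mir130a* (-0.48), *Mir26b* (-0.26), *Dgcr8* (-0.0056), U5 at chromosome 4 (-0.053), *mt-Rnr2* (-0.36) and *mt-Tl1* (-0.022). Median-ratio factors turned *Mir130a* (-0.12) and *mt-Rnr2* (-0.0053), 12 libraries *Mir130a* (-0.026), library totals and thinning *Tet1* (0.084 and 0.069). Leaving out 1 library at a time gave -0.24 to 0.31 for *Tet1*, -0.060 to 0.059 for *Mir130a* and -0.0046 to 0.0048 points for the rRNA share, and no count of calls moved beyond 1.5 times. Beside the calls named above in the results, single libraries of Dnmt1 KO decided those of *Rtl1* (lost without day 11 replicate 2 or 3 or day 25 replicate 2 or 3, log2 change 0.26 to 0.32), *Mir30c-1* (day 11 replicate 2, day 25 replicates 1 and 3, 0.39 to 0.42), *Mir878* (day 25 replicate 3, -0.82), *Mir1981* (day 25 replicate 2, -0.48), U5 at chromosome 4 (day 11 replicate 2, 0.33) and 7SK (day 11 replicate 2 or day 25 replicate 2, 0.48). Calls were gained for *Mir26b* (day 25 replicate 1 or 3 left out, 0.30 and 0.31), *Dgcr8* (day 25 replicate 1, 0.66), *Mir15b* (day 25 replicate 2, -0.37) and *mt-Rnr2* (day 11 replicate 1, 0.21).

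Shares without overlapping features turned for protein_coding (1.14 points), lincRNA (-0.0094), snoRNA (-0.32), misc_RNA (0.0046), miR-130/301 (0.017), miR-23/24/27 (0.062), blood miRNAs (0.020), Hox miRNAs (0.00020) and C/D box snoRNAs (-0.35). The miRNA share rose by 3.35 points without the 5 most abundant features, and the rRNA share was -0.00050 with the R1 libraries. With the replicate block 1310 features were called in Dnmt1 KO, 1524 in control and 505 in the interaction, and in a fit of the 6 Dnmt1 KO libraries 999 against 998; since the numbers do not pair the libraries, nothing is read from it. At 10 RPM the shallowest day 25 library of Dnmt1 KO holds about 5.28 reads, so values of rare features rest on few reads there.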

Other observations

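In a search chosen after seeing the data, features were ranked by their correlation with *Mir143* over the 24 libraries of days 1 to 9. The 20 that followed it most closely had r = 0.903 to 0.976. *Mir143* was known to have fallen by day 25, so a lean towards falls among them was likely beforehand. The libraries share the days and genotypes, and several of the 20 features hold the same reads. This is therefore a description, and whether these features are controlled together was not tested. All 20 fell from day 11 to day 25 in Dnmt1 KO (median log2 change -2.67, where 26.3% of all features and 128 of the 291 tested miRNAs were lower), and 16 fell and 1 rose in control (-1.69; 33.8% of all features and 136 of the miRNAs were lower). They include *Mirlet7i*, *Mir98*, *Mir221*, *Mir10b*, *Mir29a*, *Mir145*, *Mir21*, *Mir34b*, *Mir34c* and *Mir31*, a miRNA of epithelium and fibroblasts that is in none of the lists, together with gene features that hold reads of these same hairpins, such as *Vmp1*, *Wdr82* and *Huwe1*. For *Mir295*, of the miR-290 cluster, the correlations were lower (r = 0.455 to 0.625). Of its 20 features 8 rose and 2 fell in Dnmt1 KO (24.5% and 26.3% of all features). In control 14 of them rose and none fell (25.5% and 33.8%).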
